A study of Homo sapiens with 9 samples.

Results

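Metallothioneins and zinc response genes were followed in a human glioblastoma line, LN229, before and after the addition of sodium formate. The set held 8 named genes, the metallothioneins MT1E, MT1F, MT1G, MT1M, MT1X and MT2A, the metal-sensing transcription factor MTF1 and the zinc exporter SLC30A1. They were chosen by symbol, without a measured value in the rule, though with earlier results of these data known. Of the 8, 7 had an entry among the 23727 genes of the count table and MT1M is not analysed here. Of those 7, MT1E, MT1X, MT2A, MTF1 and SLC30A1 passed the filter on low counts and were among the 15273 genes tested, and MT1F and MT1G did not pass it.

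Gene expression was measured by RNA sequencing of stranded mRNA libraries from total RNA with an integrity number above 9. The 9 libraries formed 3 groups of 3: untreated cells at 0 h, cells given 500 µM sodium formate for 8 h, and cells given the same dose for 24 h. All groups grew in glucose-free, glutamine-free and phenol red-free DMEM to which glucose (17 mM), glutamine (2 mM) and fetal bovine serum (10%) had been added. No untreated culture at 8 h or 24 h was among the samples, so formate and time in culture cannot be told apart. The source label spells the line LN299 and the growth protocol LN229. Nothing in the labels says that the replicates came from separate cultures, so p-values measure the spread between these libraries, which may be technical.

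Metallothioneins are small cytosolic proteins, rich in cysteine, that bind zinc and copper and also take up cadmium and reactive oxygen species. When free zinc rises, it binds the zinc fingers of MTF1, which moves to the nucleus and binds metal response elements in the promoters of metallothionein genes and of SLC30A1. SLC30A1, also called ZnT1, sits in the plasma membrane and carries zinc out of the cell. MT2A is the isoform that most human tissues and tumours, gliomas included, express at the highest level, and glucocorticoids can also induce it.

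The coding sequences of the 3 metallothioneins that passed the filter are shown because they bear on whether reads of one can be told from reads of another. Each is 186 bases long and holds 20 cysteine codons, and capitals mark the bases that differ from MT2A at the same position. They were read from GENCODE release 29 on GRCh38 as the spliced coding parts, 5′ to 3′, of transcripts MT2A-201 (chr16:56608656-56609354), MT1E-201 (chr16:56625852-56626971) and MT1X-201 (chr16:56682541-56684049), all on the plus strand.
MT2A: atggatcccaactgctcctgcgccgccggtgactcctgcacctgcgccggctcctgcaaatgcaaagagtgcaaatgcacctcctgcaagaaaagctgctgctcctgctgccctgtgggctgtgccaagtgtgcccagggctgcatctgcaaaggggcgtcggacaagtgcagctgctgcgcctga
MT1E: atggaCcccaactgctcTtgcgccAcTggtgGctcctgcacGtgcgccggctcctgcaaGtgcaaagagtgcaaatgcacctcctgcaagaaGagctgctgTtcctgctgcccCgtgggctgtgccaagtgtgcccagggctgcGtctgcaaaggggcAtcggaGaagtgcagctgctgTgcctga
MT1X: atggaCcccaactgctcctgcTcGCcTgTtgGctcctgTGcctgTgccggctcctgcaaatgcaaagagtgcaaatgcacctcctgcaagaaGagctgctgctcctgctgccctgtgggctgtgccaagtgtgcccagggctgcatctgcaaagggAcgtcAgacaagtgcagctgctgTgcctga
MT1E differed from MT2A at 14 of the 186 bases (92.5% identity), and MT1X likewise at 14. Over all annotated transcripts, 3.02% of the stretches of 50 bases in MT2A also occurred at another annotated gene, against 7.10% in MT1E and 18.3% in MT1X. An overlapping gene model on the same strand, AC026461.1, covers 18.1% of the exons of MT1X and was the gene that shared most of these stretches with it. At 100 bases, MT1X kept 11.3%, all of it shared with AC026461.1, and MT2A and MT1E kept 0%. SLC30A1 had no such stretch at 50 bases and MTF1 had 0.640%. The treatment of reads that match several genes is not given in the sources used here, so the counts of the metallothioneins, and of MT1X most, are uncertain to that extent.

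The promoters of MT2A, MT1X and SLC30A1 are shown because MTF1 binds there. They are the 250 bases before the transcription start in RefSeq on GRCh38.p14, 5′ to 3′ on the gene's strand, at chr16:56608334-56608583 (plus) for MT2A, chr16:56682220-56682469 (plus) for MT1X and chr1:211579162-211579411 (minus) for SLC30A1. Capitals mark matches to the core of the metal response element, searched on both strands as TGCACNC and TGCGCNC, where N is any base. The RefSeq promoter table held 4 of the 8 genes, these 3 and MTF1.
MT2A: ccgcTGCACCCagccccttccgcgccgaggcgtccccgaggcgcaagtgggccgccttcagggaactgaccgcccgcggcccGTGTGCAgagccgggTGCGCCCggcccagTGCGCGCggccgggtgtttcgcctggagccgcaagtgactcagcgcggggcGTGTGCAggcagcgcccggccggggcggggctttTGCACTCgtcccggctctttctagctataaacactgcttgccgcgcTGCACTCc
MT1X: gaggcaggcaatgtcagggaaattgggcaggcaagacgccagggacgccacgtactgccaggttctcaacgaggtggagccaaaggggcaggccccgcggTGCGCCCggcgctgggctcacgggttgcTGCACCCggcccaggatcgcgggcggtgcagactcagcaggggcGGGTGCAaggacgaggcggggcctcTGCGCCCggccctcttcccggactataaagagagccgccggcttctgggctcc
SLC30A1: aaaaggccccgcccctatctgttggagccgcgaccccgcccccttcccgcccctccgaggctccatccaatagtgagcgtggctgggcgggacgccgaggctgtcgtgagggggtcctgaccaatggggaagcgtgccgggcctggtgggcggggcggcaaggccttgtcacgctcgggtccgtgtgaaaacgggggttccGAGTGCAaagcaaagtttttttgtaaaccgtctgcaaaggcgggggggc
MT2A had 7 matches, and 0.0313% of the 35116 promoters in the table had as many. MT1X had 4, a number that 0.370% of promoters reached. SLC30A1 had 1 match, and 24.8% of promoters had at least 1; none was found in the MTF1 window. No matches overlapped each other. The spelling TGCACNC occurred in 9.87% of all these promoter windows and TGCGCNC in 16.8%. The GENCODE model of MT2A starts further upstream than the RefSeq start and takes in the whole MT2A window, and that of MT1X takes in the end of the MT1X window. The SLC30A1 window lies wholly upstream of the GENCODE start of that gene (chr1:211578742), and the bases between them were not searched. A match is a description of the letters and shows no binding.

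**Figure D1:**
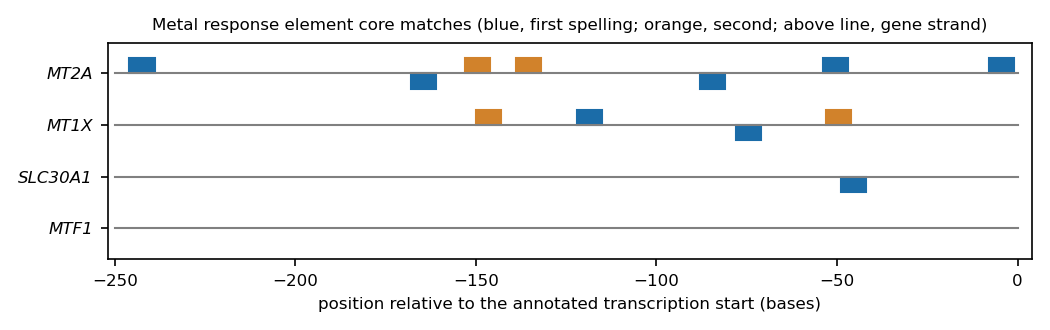
Matches to the metal response element core in the 250 bases before the RefSeq start of MT2A, MT1X, SLC30A1 and MTF1; the horizontal axis is the position in bases relative to the start. Blue blocks are TGCACNC and orange blocks TGCGCNC, above the line on the gene's strand and below it on the other; MT2A shows 7, MT1X 4, SLC30A1 1 and MTF1 none.

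Library totals lay between 22222298 and 25848242 counts, and between 20719 and 21354 genes had at least 1 count in a library. Normalization factors by TMM, which scale libraries to each other, ran from 0.920 in untreated replicate 1 to 1.065. Levels below are CPM, the usual unit of counts relative to a library's total, on that scale, and 3 counts, the floor used here, correspond to 0.116 to 0.141 CPM. Of 9 glial and glioma markers, VIM (4900 CPM at 0 h), CD44 (999 CPM), NES (948 CPM), S100B (130 CPM), EGFR (88.8 CPM) and SOX2 (80.0 CPM) were well detected. OLIG2 was at 8.31 CPM, SOX9 at 0.759 CPM and GFAP, the defining astrocyte marker, at 0.233 CPM. S100B, a calcium-binding protein of astrocytes, was the only 1 of these markers called without the block, and rose to 340 CPM at 24 h (log2 fold change 1.38 against 0 h, adjusted p = 0.0460, and 0.000507 with the block). Leaving out 1 library without the block, that adjusted p ran from 0.0240 to 0.194 and passed in 3 of 9 fits, those without untreated replicate 2 and replicates 1 or 2 of 8 h. With the block, OLIG2 was also called higher at 24 h against 0 h (0.532, adjusted p = 0.0303). VIM (-0.445, adjusted p = 0.00858) and CD44 (-0.375, adjusted p = 0.00690) were called lower. Without it the adjusted p was 0.0922 for OLIG2, 0.133 for VIM and 0.0929 for CD44. Genes on the opposite strand overlap 24.4% of the exons of VIM, and the strand setting of the counting is not known. The share of all genes called with the block was 24.1%. Immune markers summed to 0.619 CPM at most and epithelial markers to 0.136 CPM. Of the endothelial markers, CDH5 is not analysed here, PECAM1 had 0 to 3 counts, and VWF rose from 0.308 to 0.566 CPM at 0 h to between 1.04 and 1.58 CPM at 24 h (log2 fold change 1.60, adjusted p = 0.0304). That call was lost without untreated replicates 2 (0.0639) or 3 (0.0563) and without replicates 2 (0.110) or 3 (0.146) of 24 h. The part of these markers in the results was not tested.

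Among the metallothioneins, MT2A carried nearly all of the counts. At 0 h it ranked 259th of the 23727 genes by CPM and took 0.0486% of all counts. Per kilobase of exon, at chr16:56608199-56609497 (plus strand, ENSG00000125148), it stood at 382 ± 56.8 CPM per kb (SD, n = 3) and ranked 54th of the 23252 genes with a known length. Summed over the 9 metallothionein genes and pseudogenes of the table, counts came to 96.6% to 97.5% from MT2A in every library. The order per length at 0 h then ran SLC30A1 (9.60 ± 2.11 CPM per kb), MT1E (8.83 ± 2.58), MTF1 (5.43 ± 0.356) and MT1X (2.55 ± 0.0296). SLC30A1 and MT1E, neighbours in that order, overlapped between libraries (7.20 to 11.2 against 6.81 to 11.7 CPM per kb), and each of the other neighbouring pairs was separated. At 24 h the order was the same, from MT2A at 408 CPM per kb through SLC30A1 at 12.7, MT1E at 10.1 and MTF1 at 5.31 to MT1X at 3.58.

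MT2A levels overlapped between all 3 times. In bulk RNA such as this, fewer cells expressing a gene and less RNA per cell cannot be told apart. Untreated replicates 1, 2 and 3 had 553, 522 and 412 CPM. After 8 h of formate the replicates had 429, 556 and 431 CPM, and after 24 h 585, 488 and 516 CPM. Untreated replicate 3 and replicates 1 and 3 of 8 h were the low ones. The group means were 496 ± 73.8, 472 ± 72.7 and 530 ± 49.9 CPM (SD, n = 3 each). The fitted log2 fold change was -0.07 at 8 h against 0 h (95% interval -0.39 to 0.25, edgeR adjusted p = 1) and 0.10 at 24 h against 0 h (-0.23 to 0.42, adjusted p = 0.700). That interval at 24 h corresponds to 0.855-fold to 1.33-fold. Between 24 h and 8 h the log2 fold change was 0.17 (-0.15 to 0.49, adjusted p = 0.528). Counting error alone gave a coefficient of variation of 0.931% at 0 h, and the libraries varied by 14.9%.

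MT1E lies 3′ of MT2A on the same strand (chr16:56625475-56627112, ENSG00000169715) and encodes another cytosolic metallothionein. It had 12.4, 8.36 and 7.17 CPM in the untreated replicates. At 8 h it had 9.08, 10.5 and 8.34 CPM, and at 24 h 11.1, 10.4 and 10.4 CPM. Untreated replicate 1 was the highest of the 9 libraries, and no group was separated from another. The 24 h libraries lay close together (10.7 ± 0.406 CPM), while the untreated libraries spread over 9.29 ± 2.72 CPM (SD, n = 3 each). The log2 fold change was 0.01 at 8 h against 0 h (95% interval -0.41 to 0.42, adjusted p = 1) and 0.20 at 24 h against 0 h (-0.21 to 0.61, adjusted p = 0.507). Without untreated replicate 1, the difference at 24 h against 0 h was 0.44, and with the block 0.43 and called (adjusted p = 0.0264, the only 1 of 24 alternatives that passed, in a range up to 0.883). The difference between 24 h and 8 h was 0.19 (adjusted p = 0.571).

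MT1X, the metallothionein at the other end of the cluster (chr16:56682424-56684196, plus strand, ENSG00000187193), was the member called without the replicate block, and between 8 h and 24 h only. The untreated replicates had 4.48, 4.58 and 4.51 CPM, from 95, 119 and 102 counts. At 8 h the replicates had 4.13, 4.68 and 3.62 CPM from 91, 107 and 85 counts, and at 24 h 6.01, 6.13 and 6.92 CPM from 142, 142 and 167 counts. All the 24 h libraries lay above all the libraries of 0 h and 8 h, which overlapped each other. The untreated libraries differed by less than counting alone gives on average (coefficient of variation 1.16% against 9.74%), so their spread understates the error.

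MT1X rose between 8 h and 24 h by 0.62 on the log2 scale, or 1.53-fold (95% interval 1.21 to 1.94, adjusted p = 0.0472). Against 0 h the 24 h libraries were higher by 0.49 on the log2 scale, or 1.40-fold (95% interval 1.11 to 1.77, adjusted p = 0.0865), which did not pass the threshold of 0.05. With the replicate number as a block, which the titles share between the times, that difference was also 0.49 and passed (adjusted p = 0.0310). At 8 h against 0 h the log2 fold change was -0.13 (-0.47 to 0.22, adjusted p = 1). The comparisons of 24 h with 0 h and with 8 h share the 24 h libraries, so they are not independent of each other.

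The MT1X call between 8 h and 24 h stood near the threshold. Over 24 alternatives its log2 fold change stayed positive, from 0.48 to 0.72, and the adjusted p ran from 0.00489 to 0.211, under 0.05 in 13 of them. These passes included the replicate block (0.0125) and 7 of the 9 fits that left out 1 library with the block (lowest 0.00489). Without the block the call held with total counts alone (0.0492), DESeq2 (0.0170) and the compared groups only (0.0408). Leaving out 1 library without the block, the adjusted p stayed under 0.05 when the library removed was replicate 1 of the untreated group (0.0240) or of 24 h (0.0491). It exceeded 0.05 without untreated replicates 2 (0.0664) or 3 (0.0674), without replicates 1 (0.191), 2 (0.0645) or 3 (0.142) of 8 h, and without replicates 2 (0.155) or 3 (0.211) of 24 h. The blocked call at 24 h against 0 h held in 5 of 9 such fits, with a log2 fold change from 0.38 to 0.56. It was lost without untreated replicates 2 (adjusted p = 0.119) or 3 (0.0661) and without replicates 1 (0.0577) or 3 (0.136) of 24 h. The alternatives' adjusted p for that difference ran from 0.0310 to 0.275.

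**Figure D2:**
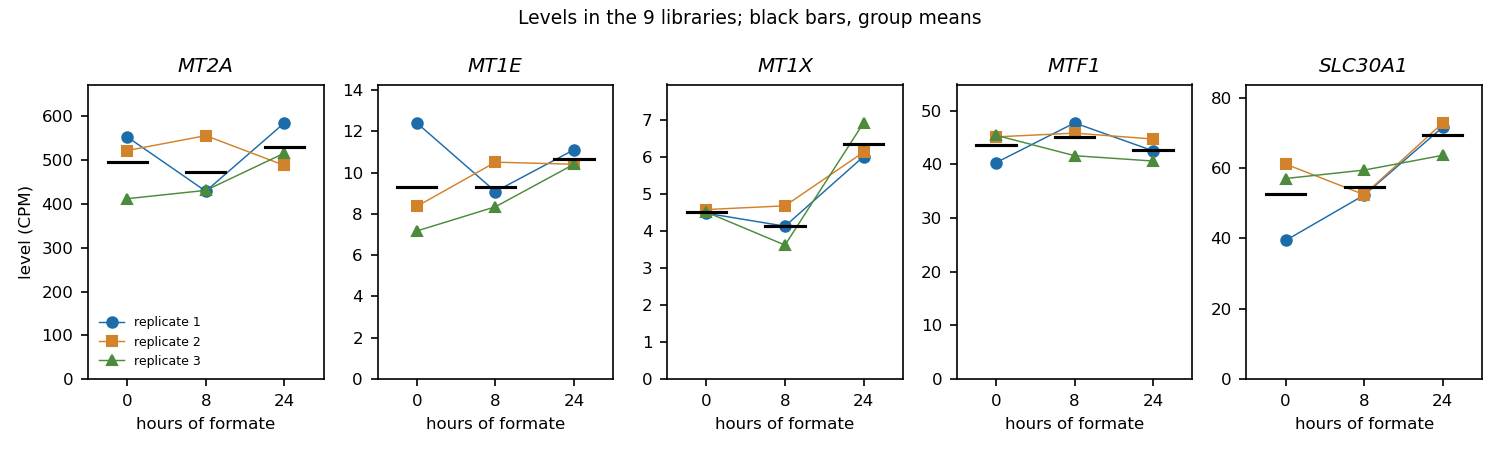
Level of the 5 tested genes in every library (vertical axes, CPM from 0) against hours of formate; points of one colour and shape join libraries with the same replicate number, and black bars are group means. The 24 h libraries of MT1X (6.01 to 6.92 CPM) and of SLC30A1 (63.6 to 72.8 CPM) lie above all libraries of the earlier times, and MT2A, MT1E and MTF1 overlap.

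Against MT2A within the same library, a ratio chosen after the values had been seen, MT1X stood at 0.810, 0.878 and 1.09 counts per 100 MT2A counts at 0 h. At 8 h the ratio was 0.962, 0.842 and 0.840, and at 24 h 1.03, 1.26 and 1.34. The ranges of 24 h and 0 h overlapped and those of 24 h and 8 h did not. An exact two-sided permutation test gave p = 0.2 for 24 h against 0 h, p = 0.1 for 24 h against 8 h and p = 0.7 for 8 h against 0 h, where 0.1 is the smallest p that 3 libraries against 3 allow. Adjusted over the 6 such comparisons made, for MT1X and MT1E, none was under 0.6. MT1E stood at 1.60 to 2.23 counts per 100 MT2A counts over the 9 libraries, with p between 0.5 and 0.7 in the same test.

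The other metallothioneins of the set were at the limit of detection. MT1F (chr16:56657694-56660698, plus strand) had 1 count in untreated replicate 1 and 0 in the other 8 libraries. MT1G (chr16:56666731-56668065, minus strand) had 1 count in replicate 3 of 8 h and 1 in replicate 1 of 24 h. Both were below the floor of 3 counts in every library, so no fold change is given and a change below that floor was not detectable at this depth. The 6 metallothionein genes of the set, MT1M included (chr16:56632233-56633986, plus strand), lie within 76 kb of chromosome 16.

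MTF1, the zinc sensor that activates these genes, showed no separation between the times (chr1:37809567-37859620, minus strand, ENSG00000188786). It had 40.3, 45.1 and 45.4 CPM at 0 h. At 8 h it had 47.7, 45.8 and 41.6 CPM, and at 24 h 42.5, 44.7 and 40.6 CPM. The ranges of all 3 times overlapped, and the group means were 43.6 ± 2.85, 45.0 ± 3.15 and 42.6 ± 2.06 CPM (SD, n = 3 each). The log2 fold change was 0.05 at 8 h against 0 h (95% interval -0.17 to 0.26, adjusted p = 1). The value for 24 h against 0 h was -0.03 (-0.25 to 0.18, adjusted p = 0.844), and 0.04 when libraries were scaled by total counts alone. MTF1 acts through its protein, whose amount and location were not measured here.

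SLC30A1, the zinc exporter (chr1:211571568-211578742, minus strand, ENSG00000170385), was higher in the 24 h libraries, and whether that difference was called depended on the replicate block. The untreated replicates had 39.4, 61.1 and 57.0 CPM. At 8 h it had 52.3, 52.4 and 59.4 CPM, and at 24 h 71.6, 72.8 and 63.6 CPM. Untreated replicate 1 was the lowest library by far, and all the 24 h libraries lay above all the others. The group means were 52.5 ± 11.5, 54.7 ± 4.07 and 69.3 ± 4.99 CPM (SD, n = 3 each).

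The SLC30A1 difference between 24 h and 0 h was 0.40 on the log2 scale, or 1.32-fold (95% interval 0.08 to 0.72 on the log2 scale, adjusted p = 0.126). With the replicate block it was 0.42 and passed the threshold (0.13 to 0.70, adjusted p = 0.0390). Libraries with the same number differed 1.82-fold, 1.19-fold and 1.11-fold for replicates 1, 2 and 3. Without untreated replicate 1 the log2 fold change came to 0.21 (adjusted p = 0.253), and with the block to 0.22 (adjusted p = 0.0902). The blocked call was also lost without replicates 1 (0.0706) or 3 (0.0706) of 8 h and without replicates 1 (0.186) or 2 (0.124) of 24 h. Over all 24 alternatives the adjusted p ran from 0.0290 to 0.344 and every one gave a higher level at 24 h. The log2 fold change was 0.34 between 24 h and 8 h (0.02 to 0.66, adjusted p = 0.195), and at 8 h against 0 h 0.06 (-0.26 to 0.38, adjusted p = 1). Over the alternatives, the adjusted p at 24 h against 8 h ran from 0.00406 to 0.534, the lowest without untreated replicate 1 and with the block.

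**Figure D3:**
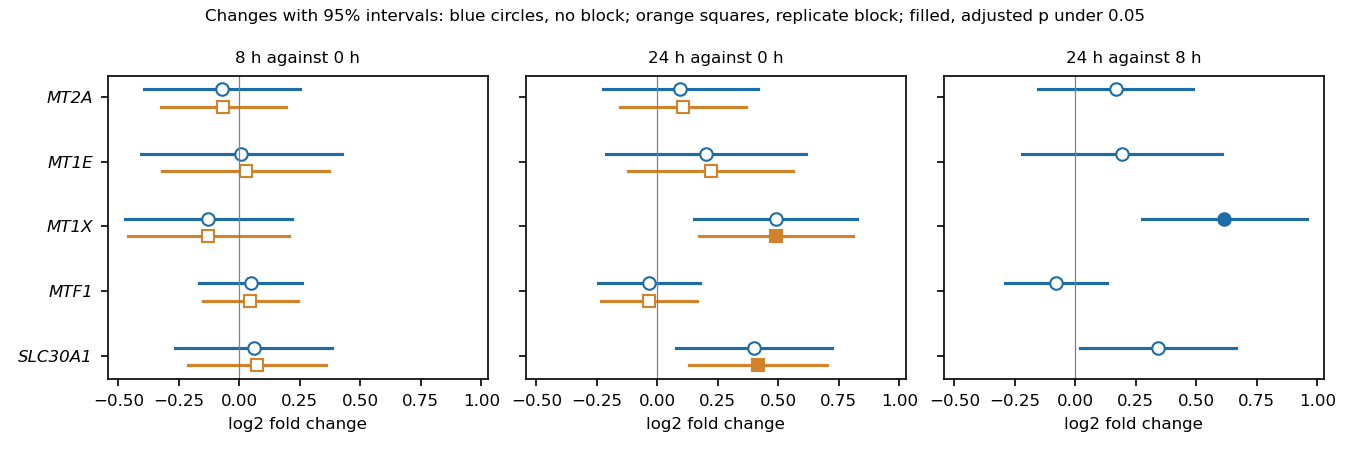
Fitted log2 fold changes of the 5 tested genes in the 3 comparisons, with 95% intervals. Blue circles are fits without a block and orange squares fits with the replicate number as a block. Blocked fits are drawn only for the comparisons with 0 h. Filled symbols have an adjusted p under 0.05. That holds for MT1X at 24 h against 8 h and, with the block, for MT1X and SLC30A1 at 24 h against 0 h.

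These counts were set against the same rule over all genes tested. At 8 h against 0 h, 0 of the 5 members passed an adjusted p of 0.05 by edgeR, as did 0 of the 15273 genes (0%, and 0% with the block), and at an unadjusted p under 0.05 there were 0 members and 0.517% of all genes. In that comparison, 0 of the 5 had groups that did not overlap, against 3.31% of all genes. At 24 h against 0 h, 0 of the 5 passed, against 4.25% of all genes, and with the block 2 of 5, against 24.1%. The unadjusted p was under 0.05 for 2 of 5, against 26.4% of all genes. Both MT1X and SLC30A1 lay higher at 24 h with no overlap of the groups, as did 15.9% of all genes. At 24 h against 8 h, 1 of 5 passed (MT1X), against 4.56% of all genes, and the unadjusted p was under 0.05 for 2 of 5, against 22.8%. The same 2 members lay higher without overlap, as did 18.2% of all genes. An F test over all 3 times together called 0 of 5, against 3.64% of all genes, with an adjusted p of 0.0733 for MT1X, 0.216 for SLC30A1 and at least 0.729 for MT1E, MT2A and MTF1.

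The fold changes of MT1X and SLC30A1 stood in the upper part of the range of all genes and not at its end. At 24 h against 8 h, 92.0% of the tested genes had a lower log2 fold change than MT1X, and 81.3% a lower one than SLC30A1. Against 0 h these shares were 88.3% and 84.4%. MT1E (70.6%), MT2A (60.5%) and MTF1 (45.0%) were nearer the middle in that comparison. The median log2 fold change of the 5 was 0.01, 0.20 and 0.19 at 8 h against 0 h, 24 h against 0 h and 24 h against 8 h, beside -0.02, 0.01 and 0.02 over all tested genes.

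The remaining genes of zinc handling gave few calls. Of 13 other metallothionein genes and pseudogenes, 4 were in the table and only the processed pseudogene MT2P1 was tested (7 to 16 counts a library, log2 fold change 0.19 at 24 h against 0 h, adjusted p = 0.764). It shares stretches of 50 bases with MT2A, so its counts are uncertain. MT1A had 0 counts in all 9 libraries. Of the 9 other SLC30 carriers, most of which move zinc out of the cytosol, 5 were tested and none was called in any comparison. Of those 5, 4 were higher and 1 lower at 24 h against 0 h, with a median log2 fold change of 0.10. SLC30A6, of the Golgi, had the smallest p (-0.21, adjusted p = 0.165), and SLC30A9, the most abundant, gave 0.10 (adjusted p = 0.527).

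Among the 14 SLC39 carriers, which bring zinc into the cytosol, 11 were tested. Of these, 3 were higher and 8 lower at 24 h against 0 h, with a median log2 fold change of -0.14 and 0 calls, or 1 higher and 2 lower calls with the block. Over all 15273 genes tested, 4.25% were called without the block and 24.1% with it, 1921 higher and 1766 lower. SLC39A11 rose between 8 h and 24 h by 0.50 on the log2 scale (95% interval 0.22 to 0.78, adjusted p = 0.0483). Its levels were 9.76, 10.9 and 8.94 CPM at 0 h, 8.40, 9.80 and 8.89 CPM at 8 h, and 12.4, 12.5 and 13.4 CPM at 24 h. As with MT1X, its 24 h libraries lay above all the others. Leaving out 1 library without the block, the call held without untreated replicate 1 (adjusted p = 0.0223) and was lost without each of the other 8 (0.0573 to 0.223). It was also lost with RLE size factors (0.0529), with total counts alone (0.0515) and without the filter on low counts (0.0628). Against 0 h it gave 0.37 (adjusted p = 0.106, and 0.0340 with the block). That blocked call held in 3 of 9 fits that left out 1 library, and was lost without untreated replicates 2 (0.0741) or 3 (0.138), replicates 2 (0.0598) or 3 (0.0603) of 8 h and replicates 1 (0.0878) or 3 (0.135) of 24 h. SLC39A7, which releases zinc from the endoplasmic reticulum and was the most abundant, gave -0.15 (adjusted p = 0.350).

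The copper genes, tested because metallothioneins also bind copper, gave no call without the block. Of 11 tested at 24 h against 0 h, 3 were higher and 8 lower, with a median of -0.16 on the log2 scale, and with the block 1 was called higher and 4 lower. The block called 24.1% of all genes in that comparison. SLC31A2, a copper transporter, had the smallest p, with -0.55 (adjusted p = 0.0865, and 0.00959 with the block). A gene on the opposite strand overlaps 63.1% of its exons, and the strand setting of the counting is not given in the sources used here. SOD1, the copper and zinc superoxide dismutase, was the most abundant and gave -0.12 (adjusted p = 0.555).

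Metal and oxidant response genes, several of them targets of NRF2, were mostly higher at 24 h. Of 9 tested, 8 were higher and 1 lower at 24 h against 0 h with a median log2 fold change of 0.19 and 0 calls, or 3 higher and 1 lower calls with the block. The share of all genes called there with the block was 24.1%. Between 8 h and 24 h, NQO1, a quinone reductase, rose from between 368 and 791 CPM to between 1030 and 1270 CPM (log2 fold change 1.01, adjusted p = 0.0485). GCLM, a subunit of the enzyme that starts glutathione synthesis, fell from between 86.4 and 94.5 CPM to between 52.1 and 73.0 CPM (-0.51, adjusted p = 0.0358). Their values at 24 h against 0 h were 0.90 (adjusted p = 0.0658) and -0.45 (adjusted p = 0.0523), and with the block the adjusted p was 0.000659 and 0.00991, the latter 0.0519 without replicate 3 of 24 h. Leaving out 1 library without the block, the NQO1 call at 24 h against 8 h was lost without untreated replicate 3 (0.0625), replicates 1 (0.188) or 3 (0.117) of 8 h and replicates 2 (0.176) or 3 (0.208) of 24 h. The GCLM call was lost without any 1 of the 8 h libraries (0.0645 to 0.158) and without replicates 2 (0.0913) or 3 (0.142) of 24 h. The NQO1 call was also lost with RLE size factors (0.0519) and with total counts alone (0.0607), and the GCLM call with total counts alone (0.0533). Genes on the opposite strand overlap 17.7% of the exons of NQO1, and also 8.58% of those of SLC39A7.

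Glucocorticoid-responsive genes were listed because that hormone also induces MT2A. Of 9 tested, 7 were higher and 2 lower at 24 h against 0 h, with a median of 0.26 on the log2 scale and 0 calls, or 4 higher calls with the block. Of all 15273 genes tested, 1921 were called higher with the block. SGK1, a kinase and classical glucocorticoid target, had 37.0 to 40.2 CPM at 0 h and 41.1, 62.8 and 65.7 CPM at 24 h (0.57, adjusted p = 0.0560, and 0.00970 with the block). Its blocked call was lost without replicates 2 (0.0591) or 3 (0.0549) of 24 h. KLF9, the most abundant, gave 0.78 (adjusted p = 0.127, and 0.00430 with the block).

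Heat shock genes, which heavy metals can also induce, were mostly lower. Of 9 tested, 1 was higher and 8 were lower at 24 h against 0 h, with a median log2 fold change of -0.84 and 7 called lower, against 1.77% of all genes called lower. With the block 8 were called lower, against 1766 of the 15273 genes tested. The addition was HSPB1 (-0.51, adjusted p = 0.0857, and 0.0316 with the block). Between 8 h and 24 h, 7 of the 9 were called lower, against 1.72% of all genes. HSPH1, a cytosolic chaperone, had 367, 301 and 292 CPM at 0 h and 171, 178 and 178 CPM at 24 h (-0.86, adjusted p = 0.0167). HSP90AA1, the most abundant, gave -0.84 (adjusted p = 0.0268), and HSPA8, DNAJB1 and BAG3 also fell. HSPA1A and HSPA1B fell too, but they are near-identical copies and their separate values are uncertain. Leaving out 1 library with the block, all 7 stayed called in both comparisons, though whether the numbers pair 8 h with 24 h is not settled. Without the block, DNAJB1 stayed called in 5 of 9 fits at 24 h against 0 h, being lost also without replicate 3 of 8 h (0.0501) and replicate 1 of 24 h (0.0560), and the other 6 in 7 of 9. Each of the 7 stayed called in 3 to 6 of 9 at 24 h against 8 h, with an adjusted p of up to 0.168. In that comparison HSP90AA1, HSPA8, DNAJB1 and BAG3 were lost without any 1 of the 8 h libraries, HSPA8 and DNAJB1 without any 1 of the 24 h libraries, and HSPA1A without replicate 3 of 8 h (0.0521). With only the compared groups fitted, HSP90AA1 (0.0506), HSPA8 (0.0506) and DNAJB1 (0.0594) were not called at 24 h against 0 h. Without replicate 2 or replicate 3 of 24 h, and with no block, no gene of the table was called at 24 h against 0 h or against 8 h, and without replicate 1 of 8 h none was called at 24 h against 8 h.

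**Figure D4:**
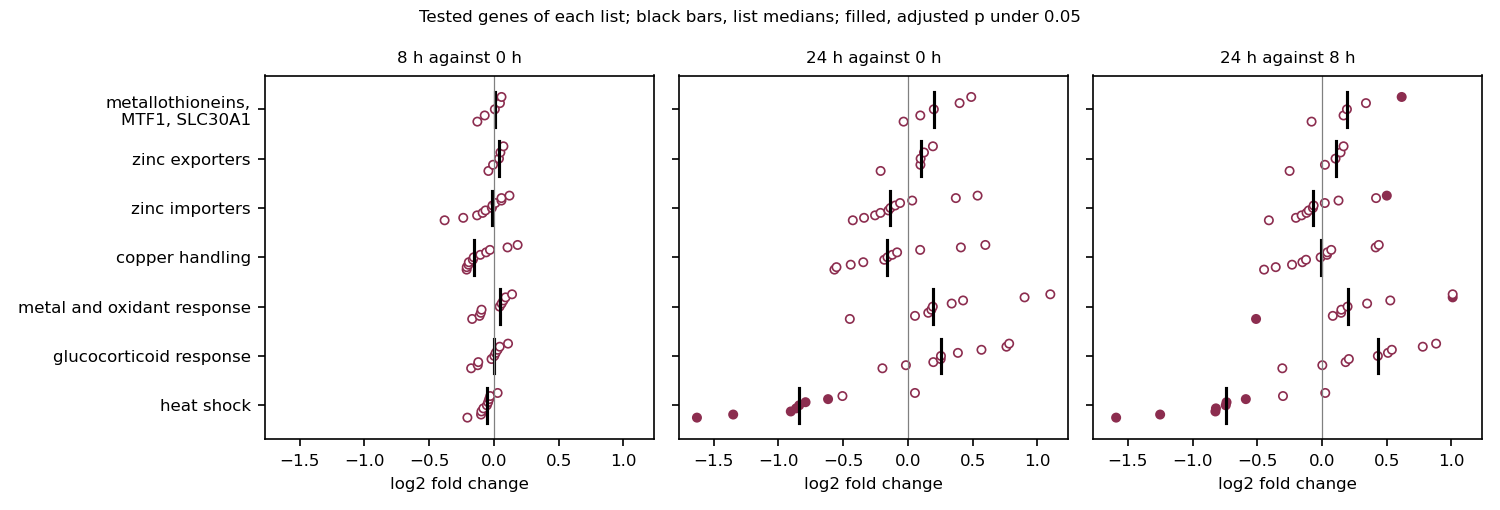
Fitted log2 fold change (horizontal axis) of each tested gene of the lists in the 3 comparisons; circles are genes, filled where the adjusted p is under 0.05, and black bars are list medians. The heat shock list lies to the left at 24 h, with a median of -0.84 against 0 h, and the zinc and copper lists lie around 0.

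The members did not vary as a block over the 9 libraries. The highest Pearson correlation of log2 CPM between members was 0.79, for MT1E with MT2A. MT1X correlated at 0.55 with SLC30A1, 0.50 with MT2A and 0.47 with MT1E. MT2A and SLC30A1 were at -0.01, and MTF1 was at 0.11 with SLC30A1 and -0.46 with MT1E. Points of the same library share its depth and normalization factor, so these values are a description.

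The pattern most like that of MT2A, among 10902 genes with a mean of at least 5 CPM, was that of VAT1 (r = 0.99 over 9 libraries), followed by CABYR (0.94), NAGPA (0.93), LDAF1 (0.92) and MPP2 (0.91). For SLC30A1 it was that of VRK2 (0.98), followed by C21orf91, TTC39B, ZBTB34 and CARNMT1, all at 0.97. Picking the highest of 10902 correlations over 9 libraries gives high values by itself, so these are a description. At 24 h against 0 h, C21orf91 (adjusted p = 0.153, and 0.0267 with the block) and TTC39B (0.0757, and 0.0110) were called with the block only. The genes most like MT2A had an adjusted p of 0.396 to 0.971 there without the block.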

How the data were processed

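The authors deposited 1 table of raw counts per Ensembl gene for the 9 libraries. Per the submitters' processing notes, bcl2fastq 2.20.0.422, STAR 2.7.4a and the build GRCh38 were used. The counting program, annotation release, strand setting and treatment of reads matching several genes are not given in the sources used here. Symbols, coordinates and exon lengths came from GENCODE release 29 (GRCh38), which named 23619 genes, and promoters from RefSeq (GRCh38.p14).

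Low-count genes were filtered by filterByExpr (minimum count 10). After TMM scaling, all 9 libraries entered 1 fit with a mean for each group (edgeR 4.0.16, R 4.3.3). The quasi-likelihood test was two-sided, with Benjamini-Hochberg adjustment over 15273 genes and a threshold of 0.05. Standard errors and 95% intervals were derived from the test's F value. The code was tested on simulated data. Alternatives were other scalings, DESeq2 1.42.0, no filter, a replicate block, fits of the compared groups only, and leaving out each library.

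All members were named. From each pathway list the smallest p at 24 h against 0 h, the most abundant gene and every called gene were named, beside the cell type markers, and for MT2A and SLC30A1 the 5 genes of most similar log2 CPM (prior count 2). The members and lists were chosen with earlier results of these data known. Replicate numbers come from the titles. Deviations from the group means of libraries with the same number correlated at 0.476, 0.432 and 0.414 between 0 h and 8 h, at 0.367, 0.164 and 0.251 between 0 h and 24 h, and at 0.423, 0.0367 and 0.404 between 8 h and 24 h. Replicate 2 of 24 h correlated more with untreated replicate 3 (0.27) than with untreated replicate 2. It also correlated more with replicate 3 of 8 h (0.134) than with replicate 2 of 8 h. The numbers were taken to pair 0 h with 8 h and with 24 h. For 24 h these values do not settle that choice, nor the choice not to pair 8 h with 24 h. Blocked values stand beside the comparisons with 0 h where they change the call of a named gene or a list's count.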

Additional observations from a re-analysis of the deposited data

Results flagged for a closer look

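The MT1X differences of the 8 h and of the 24 h libraries from the same untreated libraries were not alike: -0.13 on the log2 scale at 8 h and 0.49 at 24 h. The test of the difference between them is that of 24 h against 8 h, which gave 0.62 (0.616 before rounding, edgeR adjusted p = 0.0472). All 3 libraries of 24 h lay above all 3 of 8 h. Over 24 alternatives the adjusted p ran from 0.00489, in a fit with the block, to 0.211.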

How the results depend on the processing

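Over the 15 fold changes of the members and their 360 alternatives, 314 kept direction and side of the threshold, 11 lost a call, 15 gained one and 20 reversed; the cause was not tested. At 24 h against 8 h, members called numbered 0 with RLE size factors (MT1X adjusted p 0.0515), 0 without a filter (0.0570) and 2 with only the compared groups fitted. Members called at 24 h against 0 h were 2 with the replicate block, and in the F test 1 with DESeq2 and 1 with the block. Genes called at 24 h against 0 h were 1594 with DESeq2, 3687 with the block and 124 with only the compared groups, at 24 h against 8 h 1412, 3130 and 1787, and in the F test 1454 with DESeq2 and 2986 with the block. For 24 h against 8 h, whose pairing by number is not settled, the block gave MT1X 0.62 (adjusted p 0.0125), and for the F test 0.0212. The biological coefficient of variation was 0.137, and 0.0956 once blocked. Leaving out 1 library, with or without the block, gave 0 to 3816 genes at 24 h against 0 h, 0 to 5432 at 24 h against 8 h and 0 to 4636 in the F test, and 0 to 2 members in each of these 3. At 8 h against 0 h such fits ran from -0.206 to 0.0753 for MT2A, -0.131 to 0.259 for MT1E, -0.235 to 0.00661 for MT1X, -0.0324 to 0.134 for MTF1 and -0.113 to 0.191 for SLC30A1. At 24 h against 0 h they ran from -0.0216 to 0.237 for MT2A, 0.0469 to 0.437 for MT1E, -0.126 to 0.0400 for MTF1, -0.0766 to 0.434 for MT2P1 and -0.232 to 0.0310 for SOD1, and total-count scaling gave MTF1 0.0362. Summed over all metallothionein genes, the log2 ratio was -0.07 (8 h against 0 h), 0.10 (24 h against 0 h) and 0.17 (24 h against 8 h). Sharing of 75-base stretches was 1.43% for MT1E, 14.4% for MT1X and 0% for MT2A. Depth limits MT1F and MT1G, which stayed below 3 counts.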
